A study of Mus musculus with 3 samples.

Results

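Bladder urothelial cells of Lpar6 knockout mice were set against those of wild-type mice, gene by gene, in 1 droplet-based 3' single-cell RNA library of each genotype. Cells were chosen by 3 rules that put both libraries on a like footing: 20000 to 30000 unique molecular identifiers (UMIs, counts of captured transcripts) per cell, at most 10% of them from mitochondrially encoded genes, and at least 0.2% from the uroplakin genes Upk1a, Upk1b, Upk2 and Upk3a. These rules kept 524 of 8085 wild-type barcodes and 2121 of 8293 Lpar6 knockout barcodes, 2645 of 16378 in the pair of libraries, out of 25784 in the series. The remaining library, of Cab39l knockout mice, gave 923 of 9406 barcodes by the same rules, and its values are set beside the others. Each library was prepared from the pooled cells of 15 mice, which leaves 1 sample a genotype in which single animals are not distinguished. The knockouts are named by gene only, with no strain, age, sex or deleted bases in the sources used here. Since each genotype has 1 library, differences could be neither tested nor checked in replicates, and the 95% intervals (exact Poisson for levels, exact conditional for folds) cover counting error only.

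The urothelium is the layered lining of the bladder. Basal cells that carry keratins such as KRT5 sit on the basement membrane, intermediate cells lie above them, and umbrella cells at the surface carry plaques of uroplakins that hold back urine. LPAR6 is a G protein-coupled receptor for lysophosphatidic acid (LPA), a signalling lipid; it couples to G12/13 proteins, and in the hair follicle it acts upstream of the shedding of EGF receptor ligands. CAB39L is a scaffold of the LKB1 kinase complex, which acts on AMP-activated protein kinase. The series concerns the course of urothelial cells from basal to luminal states.

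The chosen cells shared a window of depth but differed in other respects. They held a median of 25372.5 UMIs in wild type and 26445 in Lpar6 knockout cells (25400 in Cab39l knockout cells), and 13206194, 55300835 and 23219344 UMIs in all. Within the window wild type leaned to lower depth, with 43.9% of its cells against 30.7% of Lpar6 knockout cells in the lowest of 3 groups by UMIs. Cells had a median of 4765 genes in wild type, 4356 in Lpar6 knockout cells and 4289 in Cab39l knockout cells, and ribosomal protein genes took 27.03%, 32.9% and 33.1% of UMIs. Of the barcodes inside the UMI window, 417 of 946 wild-type barcodes (44.1%) were over the mitochondrial maximum, against 89 of 2210 (4.03%) and 197 of 1124 (17.5%) in the knockouts. Median mitochondrial shares of the cells kept were 7.48%, 6.14% and 6.15%, and median uroplakin shares were 0.685%, 0.984% and 0.851%; both shares were bounded by the rules and are no finding. Of other cell types, the immune marker list summed to 39.1 CPM (UMI counts over the chosen cells, scaled to a common total per library) in wild type, 3.74 in Lpar6 knockout cells and 33.0 in Cab39l knockout cells. Haemoglobin and Alas2 summed to 278, 11.9 and 95.7 CPM, while the fibroblast and smooth muscle list to 15.1, 1.68 and 0.646 CPM, the endothelial list to 0.909, 0.741 and 0.732 CPM, the neural and glial list to 5.83, 4.50 and 5.17 CPM, and the male accessory gland list to 11.8, 2.97 and 83.1 CPM. Single members, Cd3d (T cells), Cdh5 and Kdr (endothelium), Des (muscle) and Sox10 (glia), were at 0 UMIs in the chosen cells of all 3 libraries. They do not stand for their lists. In wild type 1 of 15 immune, 2 of 10 fibroblast and smooth muscle, 5 of 6 endothelial and 2 of 5 neural and glial markers were at 0 UMIs. Xist and Y-linked genes were both present in each library. The part of mitochondrial share and of other cells' RNA in the results was not tested, and their values are repeated beside the genes they move with.

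Lpar6 itself was absent from the library labelled as its knockout. Wild-type cells held 176 Lpar6 UMIs, 13.3 CPM (11.4 to 15.4), and Cab39l knockout cells 12.4 CPM, whereas the Lpar6 knockout held 0 UMIs, not only in the chosen cells but in all 8293 barcodes. With a floor of 3 UMIs over the chosen cells in place of 0, wild type stood 246-fold above it, and by the exact interval the level was at least 198-fold lower than in wild type. Lpar6 lies at chr14:73237895-73243294 (mm10) on the plus strand, within the tumour suppressor gene Rb1, which was at 11.2 CPM in wild type, 7.97 in Lpar6 knockout cells and 5.43 in Cab39l knockout cells. The nearest flanking genes showed no such loss: Itm2b, which encodes a membrane protein, was at 2149 CPM against 2115, and Rcbtb2 at 21.7 against 27.1. Cab39l was at 102.5 CPM in wild type, 94.1 in Lpar6 knockout cells and 29.9 in the library labelled as its own knockout.

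Across all 11516 genes with at least 50 UMIs, log2 of the ratio of (CPM + 1) in the Lpar6 knockout to that in wild type had a median of -0.29, a 1.22-fold lower level. At least 2-fold higher were 32 genes (0.278%) and at least 2-fold lower 311 genes (2.7%), and at 1.5-fold the shares were 1.75% and 24.6%. This lean depends on the scaling: TMM factors, a shift of 0.38 log2 before the pseudocount, gave 130 genes higher and 77 lower with a median of 0.04, and median-of-ratios factors gave 138 and 74. The Cab39l knockout leaned the same way against the wild-type library that both knockouts share (median -0.27), and between the knockouts the median was -0.01.

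The lean followed transcript length. Spearman's rank correlation between the log2 ratio and the length of a gene's longest annotated transcript was -0.59 across 11509 genes, a description with no p since genes are not independent replicates. In 5 equal groups from the shortest transcripts (0.183 to 1.865 kb) to the longest (5.176 to 123.179 kb), median log2 ratios were 0.09, -0.13, -0.33, -0.46 and -0.63, and the share of genes above 0 went from 61.6% to 4.87%. Of the 311 genes at least 2-fold lower, 150 were in the longest group. The relation to the coding sequence (correlation -0.46 across 10945 protein-coding genes) was stronger than to the 3' untranslated region (-0.33), and with each held fixed the partial values were -0.36 and -0.15. The span of the gene in the genome gave -0.43, which came to -0.11 with transcript length held, a smaller value than that of transcript length with the span held (-0.46). Highly expressed genes whose longest annotated transcript need not be the expressed one went against it, such as Rps15a, a ribosomal protein gene (2707 CPM in wild type, 3514 in Lpar6 knockout cells), and Atp5l, an ATP synthase subunit gene (648 against 790.2).

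**Figure D1:**
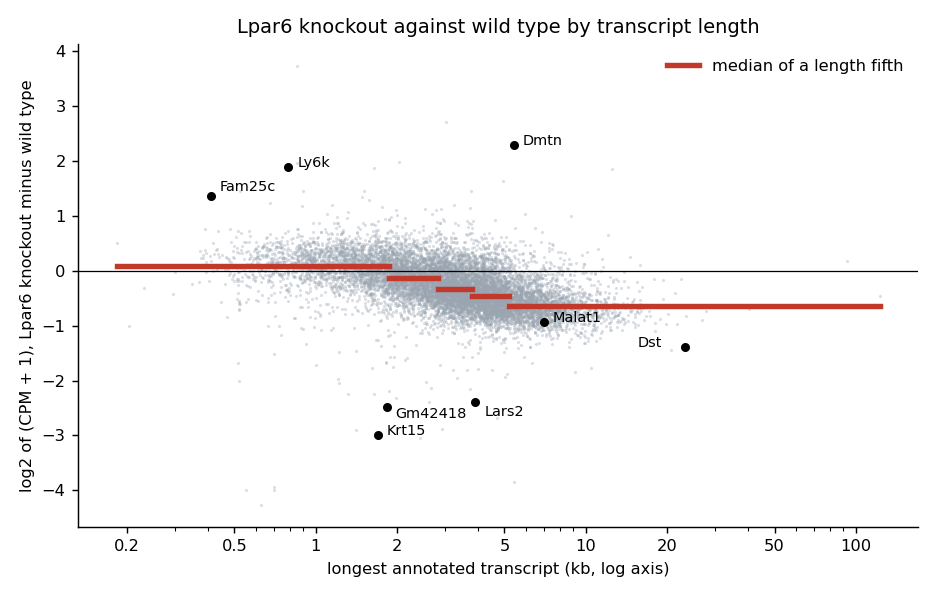
Log2 ratio of (CPM + 1) between the Lpar6 knockout and wild type (vertical axis) against the length of the longest annotated transcript in kb (horizontal log axis), 1 point for each of 11509 genes. Medians go down with length, from 0.09 in the shortest of 5 equal groups to -0.63 in the longest.

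The lower share of long transcripts was spread over almost all Lpar6 knockout cells. Transcripts of the longest group took a median of 11.4% of a wild-type cell's UMIs (quartiles 9.76 and 13.5%), 7.71% of an Lpar6 knockout cell's (7.02 and 8.50%) and 7.42% of a Cab39l knockout cell's. Of the Lpar6 knockout cells, 2115 of 2121 (99.7%) lay below the wild-type median and 1419 (66.9%) below the wild-type 5th percentile. The share of long transcripts moved with mitochondrial share on the wild-type side. In 3 groups of cells of low (up to 5.88%), middle and high (over 6.77%) mitochondrial share, the longest group took 9.86, 10.7 and 12.7% of wild-type UMIs but 7.81, 7.73 and 7.81% of Lpar6 knockout UMIs, and the correlation was -0.37, -0.45 and -0.62. The low group held 113 wild-type and 769 Lpar6 knockout cells, the middle 92 and 789, and the high 319 and 563. In 3 groups by depth, the correlation stayed between -0.57 and -0.58.

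Because of this relation each gene is also given a relative log2, its log2 ratio minus the median of the genes in the same of 20 equal groups by transcript length, a value that rescaling a library barely moves. On this scale 83 of 11509 genes (0.721%) stood 2-fold or more above wild type and 76 (0.66%) as far below, while 590 (5.13%) and 350 (3.04%) lay 1.5-fold or more above and below. Unless the CPM scale is named, counts of list members past 1.5-fold are on this relative scale, and these are the shares to set beside them. Genes with at least 20 CPM in 1 library that were 2-fold apart on the CPM scale were ranked by relative log2, which named all 5 that were higher and the lowest 15 of 146 that were lower.

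Higher in the Lpar6 knockout than in wild type were Dmtn, Ly6k, Hddc3, Fam25c and Cirbp. Ly6k, of the Ly6 family of small surface proteins, was at 75.9 CPM in wild type, 285 in Lpar6 knockout cells and 113 in Cab39l knockout cells, a 3.76-fold difference from wild type (3.53 to 4.01). Dmtn, which encodes the actin-bundling protein dematin, was at 3.63, 21.6 and 3.53 CPM (5.95-fold, 4.46 to 8.12). Both stood apart in the Lpar6 knockout from either other library, as did Fam25c (218, 561 and 224 CPM, 2.57-fold) and Hddc3, a phosphohydrolase gene (15.0, 42.7 and 13.6 CPM, 2.85-fold). Cirbp, which encodes a cold-inducible RNA-binding protein, was high in both knockouts, at 89.8 CPM in wild type against 189 and 179.6.

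Lower in the Lpar6 knockout were the keratins Krt15 and Krt4, a group of genes on chromosome 14, and genes that were also low in the Cab39l knockout. Krt4, a keratin of stratified mucosae, was at 67.3 CPM in wild type, 21.3 in Lpar6 knockout cells and 102.8 in Cab39l knockout cells, 3.16-fold lower than wild type (2.90 to 3.45). Tpm2, a tropomyosin gene, was at 30.7, 9.53 and 28.0 CPM, and Jag2, which encodes a Notch ligand, at 20.9, 4.95 and 11.1 CPM. All 3 had a lower level in the Lpar6 knockout than in either other library. Lars2, the mitochondrial leucyl-tRNA synthetase gene and 1 of 6 genes kept to check RNA quality, was at 222 CPM in wild type against 41.6 and 40.8 in the knockouts. Egr1, a transcription factor gene induced within minutes of a stimulus, was at 97.0 against 27.0 and 21.7. The ranked histone genes stood the same way, with Hist1h1e at 31.2 CPM against 8.61 and 3.83, although reads of near-identical histone copies cannot be assigned with certainty. Wild type was the highest library in each of these. Both knockouts lay together for Lars2, while Hist1h1e was 2.25-fold higher in the Lpar6 knockout than in the Cab39l knockout. Under the 16 other settings of cells, scaling and filters all 20 ranked genes kept their direction, and 7 of them, among them Fam25c, Cirbp and Krt4, came under 2-fold in at least 1: Fam25c had a log2 ratio of 0.81 at a mitochondrial maximum of 20%, and Krt4 one of -0.76 at a uroplakin minimum of 1%. In 3 groups of cells by uroplakin share, Fam25c was under 2-fold in each, at 1.98-fold, 1.68-fold and 1.86-fold from the lowest share to the highest. Krt4 moved with the summed level of Krt5 and Krt15. In the lowest of 3 groups by that sum Krt4 was at 19.1 CPM in wild type against 22.3 in Lpar6 knockout cells, so not lower. It was at 18.5 against 12.3 in the middle group and 86.1 against 34.3 in the highest. The highest group held 73.3% of wild-type and 23.5% of Lpar6 knockout cells. That sum includes Krt15, which was itself lower in the Lpar6 knockout. In 3 groups by Krt5 alone Krt4 was lower in each. From low to high Krt5 it was at 67.4 CPM in wild type against 30.4 in Lpar6 knockout cells, 78.3 against 17.3 and 62.6 against 13.7.

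**Figure D2:**
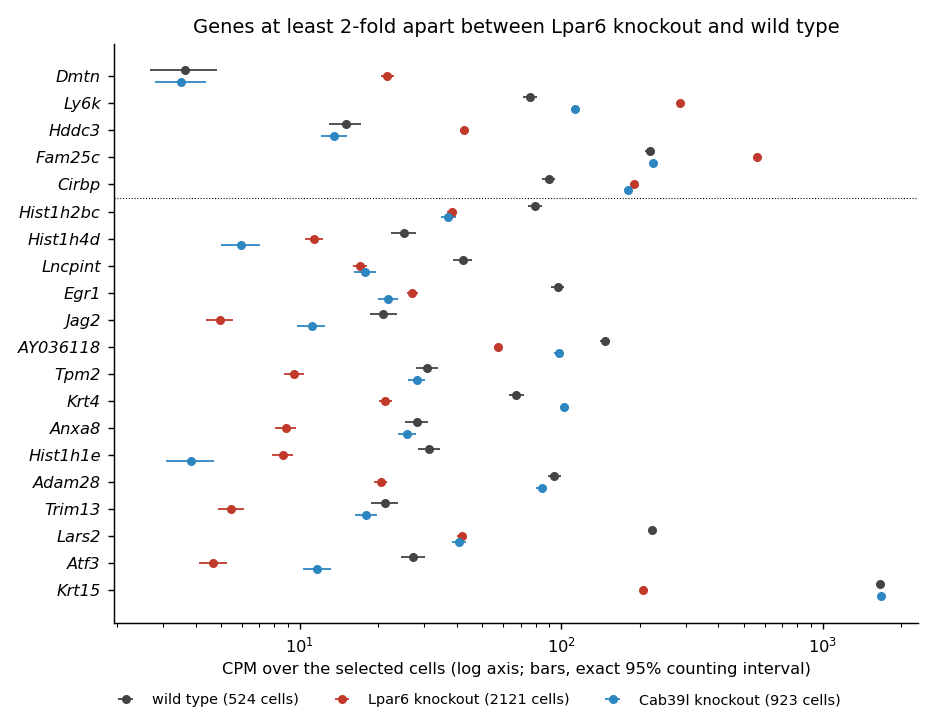
CPM over the chosen cells of wild type, the Lpar6 knockout and the Cab39l knockout (horizontal log axis, bars for exact 95% counting intervals) for the genes ranked highest and lowest. Krt15 is at 1656 CPM in wild type, 206 in Lpar6 knockout cells and 1669.7 in Cab39l knockout cells, whereas for Lars2 both knockouts, at 41.6 and 40.8 CPM, lie below wild type at 222.

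Krt15, a keratin of basal and progenitor cells of stratified epithelia, had the lowest relative log2 of the basal cell genes, at -3.01. Its level was 1656 CPM in wild type, 206 in Lpar6 knockout cells and 1669.7 in Cab39l knockout cells, an 8.03-fold difference between the Lpar6 knockout and wild type (7.85 to 8.21). Per cell, the median was 1208 CPM in wild type (quartiles 134 and 2836), 0 in Lpar6 knockout cells (quartiles 0 and 78.8) and 1272 in Cab39l knockout cells. Of the Lpar6 knockout cells, 1990 of 2121 (93.8%) lay below the wild-type median. The ranges overlapped, with a 10th percentile of 0 in wild type and a 90th percentile of 709 CPM in Lpar6 knockout cells. These values do not tell a lower level per cell from a larger share of cells without Krt15. Krt5, the keratin that marks the basal layer, was at 383 CPM in wild type, 211 in Lpar6 knockout cells and 402 in Cab39l knockout cells, a smaller difference of 1.81-fold (1.75 to 1.87), with medians per cell of 350.3, 176 and 363 CPM.

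The Krt15 difference was present in groups of cells formed by their Krt5 level. In 3 groups of low, middle and high Krt5 (Krt5 itself at 70.9 CPM in wild type against 62.0 in Lpar6 knockout cells, 207 against 202 and 550.1 against 436) Krt15 was at 467 CPM in wild type against 81.4 in Lpar6 knockout cells, at 880.3 against 169, and at 2338 against 435. It was also present at each mitochondrial share, at 2947 CPM against 249 in the low group, 2298 against 216 in the middle and 1050.0 against 132 in the high group. Krt5 stood at 558 against 239, 436 against 201 and 310.2 against 187 CPM in the same groups, so neither gene's difference was smaller among cells of low mitochondrial share. With uroplakin share the size of the Krt15 difference moved: it was 3.72-fold in the group of lowest share (2038 CPM against 548), 6.73-fold in the middle (982 against 146) and 16.4-fold in the highest (835 against 50.9). Over the 16 other settings the log2 ratio of Krt15 ran from -3.72 to -2.53 and that of Krt5 from -1.38 to -0.46.

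**Figure D3:**
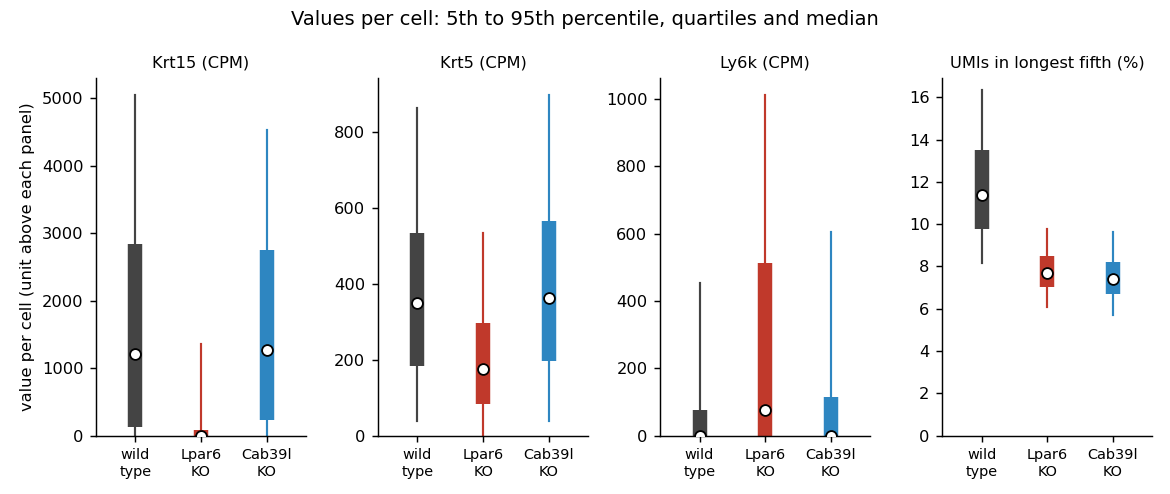
Values per cell in wild type, the Lpar6 knockout and the Cab39l knockout: the percent of UMIs in the longest transcripts and the CPM of single genes, with the unit above each panel, the median, quartiles, and 5th and 95th percentiles. The Krt15 median is 1208 CPM in wild type and 1272 in Cab39l knockout cells but 0 in Lpar6 knockout cells, while for the longest transcripts both knockouts, at 7.71 and 7.42%, lie below wild type at 11.4%.

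The basal cell list held 15 measured genes of 20. On the relative scale 7 were at least 1.5-fold lower in the Lpar6 knockout and 0 higher (3.04% and 5.13% of all genes), and the list's median was -0.40. On the CPM scale 12 were lower and 0 higher (24.6% and 1.75% of all genes). The 7 were Krt15 and Krt5, the hyaluronan receptor gene Cd44, the integrin genes Itgb4 and Itga3, Dst, which links keratin to hemidesmosomes, and the laminin receptor gene Bcam. Cd44 was at 41.9 CPM in wild type, 15.2 in Lpar6 knockout cells and 23.2 in Cab39l knockout cells, and Itgb4 at 33.2, 12.03 and 15.4, so that for these the Cab39l knockout too lay below wild type. Trp63, the transcription factor gene that keeps the basal state, was at 157 CPM in wild type and 98.0 in Lpar6 knockout cells, which on the relative scale left -0.10. The basement membrane genes Lamb3 (44.7 against 24.1 CPM) and Lama3 (13.6 against 5.88) had relative values of -0.36 and -0.40.

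Of 9 measured umbrella cell genes, 2 lay at least 1.5-fold above wild type and 0 as far below on the relative scale (5.13% and 3.04% of all genes), with a median of 0.25. The higher genes were Upk1a, which the rule for cells used, and Sprr2a1, whose near-identical copies share reads. Upk2 and Upk3a of this list were in the rule too, so its count and median are a description only. Of 7 intermediate cell genes 1, Psca, was higher and 1, Krt4, lower, with a median of 0.07. The sum of 4 uroplakins chose the cells, so uroplakin levels are a description only: Upk3a was at 4215 CPM in wild type, 5814 in Lpar6 knockout cells and 4740.4 in Cab39l knockout cells, Upk1a at 1629, 2614 and 2476, and Upk1b at 829.8, 1118 and 1159.6. Upk2 went the other way, at 658, 506 and 474 CPM, and it turned with mitochondrial share, from 379 in wild type against 493 in Lpar6 knockout cells in the low group to 803 against 554 in the high group. Krt20, the umbrella cell keratin, which the rule did not use, was at 49.6 CPM in wild type, 38.4 in Lpar6 knockout cells and 28.6 in Cab39l knockout cells. Krt18 was at 2498 against 3084 CPM and Krt8 at 1239.7 against 1270.0, relative values of 0.25 and 0.07. Psca, a surface antigen of intermediate and umbrella cells, was at 771 CPM in wild type, 1308 in Lpar6 knockout cells and 972 in Cab39l knockout cells, 1.70-fold higher than wild type (1.66 to 1.73). Psca turned with uroplakin share: it was at 487 CPM in wild type against 834 in Lpar6 knockout cells in the group of lowest share, 1046 against 1251 in the middle, and 1790 against 1654 in the highest, which held 64 wild-type and 818 Lpar6 knockout cells. The uroplakin list's median of 0.40 became -0.16 when cells needed 1% uroplakin UMIs, which kept 82 wild-type and 1018 Lpar6 knockout cells.

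Transcription factors of the luminal course stood near the middle of all genes. Of 16 measured, 1 was at least 1.5-fold lower on the relative scale and 0 higher, with a median of -0.15. Elf3, an epithelial ETS factor gene, was the one, at 116 CPM in wild type, 73.7 in Lpar6 knockout cells and 107 in Cab39l knockout cells. Foxa1, Gata3 and Pparg, which act in luminal differentiation, were at 133 against 85.0, 496 against 369 and 109.8 against 91.0 CPM, with relative values of -0.34, -0.12 and -0.17.

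Genes that stood apart were more frequent on chromosome 14, which carries Lpar6. Of its genes with at least 20 CPM, 32 of 188 (17.0%) were at least 1.5-fold apart on the relative scale, against 345 of 5221 (6.61%) on the other chromosomes. The share was 8 of 24 (33.3%) within 5 Mb of Lpar6, 16 of 78 (20.5%) within 20 Mb and 16 of 110 (14.5%) beyond. Both directions were present, 17 genes higher and 15 lower on the chromosome. Dmtn lay 2.64 Mb before Lpar6, and Adam28, which encodes a membrane metalloprotease, 4.63 Mb before it, at 94.1 CPM in wild type, 20.4 in Lpar6 knockout cells and 84.2 in Cab39l knockout cells (4.61-fold lower than wild type, 4.25 to 5.01). Trim13, a ubiquitin ligase gene 11.6 Mb before Lpar6, was at 21.2, 5.48 and 17.9 CPM. Fam25c and Anxa8, an annexin gene, lay 38.9 and 39.2 Mb before it and differed in opposite directions, with Anxa8 at 28.1, 8.84 and 25.8 CPM. The strains of the mice are not given in the sources used here, and the reason for the share on chromosome 14 was not tested.

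**Figure D4:**
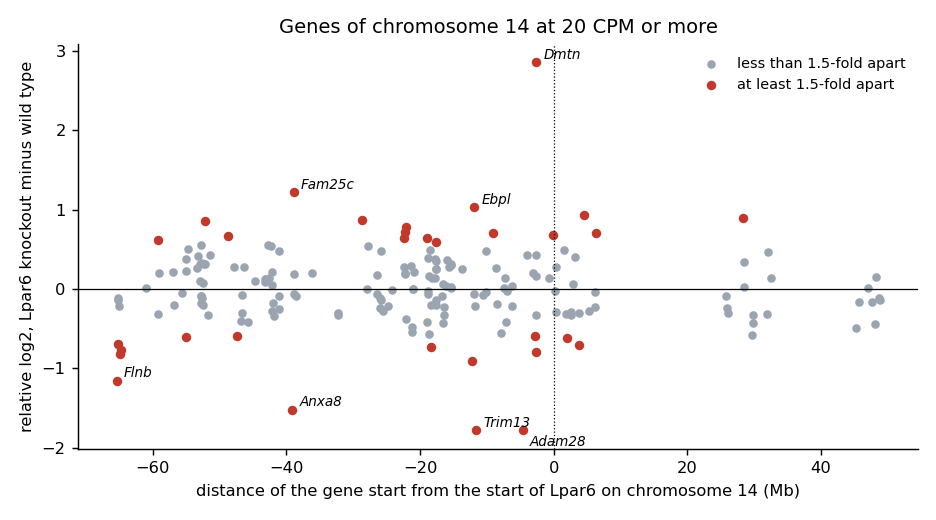
Relative log2 between the Lpar6 knockout and wild type (vertical axis) for the genes of chromosome 14 with at least 20 CPM, by distance from Lpar6 in Mb (horizontal axis). Genes at least 1.5-fold apart make up 8 of 24 within 5 Mb of Lpar6 and 16 of 110 beyond 20 Mb, in both directions.

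Immediate early genes, the transcripts that a cell makes within minutes of a stimulus, were lower in the Lpar6 knockout, and those named here were low in the Cab39l knockout too. Of 18 measured, 9 were at least 1.5-fold lower in the Lpar6 knockout on the relative scale and 0 higher (3.04% and 5.13% of all genes), and the median was -0.57. Fos was at 229.7 CPM in wild type, 126 in Lpar6 knockout cells and 113 in Cab39l knockout cells, Jun at 327, 150.5 and 151, Nr4a1 at 9.47, 1.56 and 2.97, and Atf3, a stress-induced repressor gene, at 27.1, 4.67 and 11.7. The Jun difference was present at each mitochondrial share, at 450.1 CPM in wild type against 142 in the low group, 339 against 168 in the middle and 284 against 137 in the high group. Fos in the same groups was at 273 against 120, 198 against 145 and 224 against 106. With uroplakin share the Jun difference moved. It was 1.47-fold in the group of lowest share (355 CPM against 241), 1.87-fold in the middle and 2.76-fold in the highest (251 against 90.7). Of 14 heat shock genes, 0 were past 1.5-fold either way on the relative scale, with a median of -0.19.

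Other genes of LPA signalling mostly stood close to genes of like transcript length. Of the list of LPA receptors and LPA-handling enzymes, 11 genes were measured, with 1 at least 1.5-fold higher and 1, Lpar6 itself, lower on the relative scale and a median of -0.09. The receptor genes Lpar1 (43.3 CPM in wild type, 31.2 in Lpar6 knockout cells) and Lpar3 (17.0 against 12.4) had relative values of -0.09 and -0.25, and Liph, the lipase that produces LPA in epithelia (35.4 against 25.9), one of -0.05. Plpp1, which encodes a phosphatase that breaks LPA down, was the higher one, at 8.18 CPM in wild type, 15.6 in Lpar6 knockout cells and 10.4 in Cab39l knockout cells, a 1.91-fold difference (1.56 to 2.35).

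Of the genes that act after LPA receptors, Srf, which encodes a transcription factor that reads actin dynamics, was at 13.02 CPM in wild type, 5.35 in Lpar6 knockout cells and 7.28 in Cab39l knockout cells. The G protein genes Gna12 (14.6 against 8.01 CPM) and Gna13 (33.2 against 19.98) had relative values of -0.44 and -0.10. These are single genes that do not speak for their group, which is not reported here as a whole.

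The EGF receptor ligand genes Areg and Hbegf were low in both knockouts. Of the 10 measured genes of the EGF receptor list 2 were at least 1.5-fold lower and 0 higher on the relative scale (3.04% and 5.13% of all genes). They were the ligand genes Areg, at 15.1 CPM in wild type, 4.77 in Lpar6 knockout cells and 6.03 in Cab39l knockout cells, and Hbegf, at 10.7, 2.55 and 3.49. The receptor genes Egfr (12.04, 6.51 and 7.19 CPM) and Erbb2 (38.2, 21.4 and 25.1), the ligand gene Tgfa (30.7, 18.3 and 18.05) and the sheddase gene Adam17 (20.7, 12.1 and 11.97) had relative values between -0.30 and -0.11. The Areg promoter, 250 bases before to 50 after the start, is shown since the full cAMP response element TGACGTCA, in capitals, is in it; 588 of 32851 promoters (1.79%) held these letters on either strand, and a match is a description only. It is from RefSeq, GRCm38.p6, chr5:91139349-91139648, plus strand.
Areg: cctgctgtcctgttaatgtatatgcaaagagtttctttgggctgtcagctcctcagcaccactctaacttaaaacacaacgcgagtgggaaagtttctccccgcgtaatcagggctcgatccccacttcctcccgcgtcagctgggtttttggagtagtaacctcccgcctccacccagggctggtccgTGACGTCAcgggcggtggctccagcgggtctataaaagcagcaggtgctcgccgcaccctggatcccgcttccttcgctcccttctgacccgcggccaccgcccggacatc

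Notch and junction genes held single members that stood apart. In the Notch list Jag2 and Lfng were lower among 11 measured, while Notch1 (184 against 98.0 CPM) and Hes1 (427 against 346) had relative values of -0.22 and -0.36. Of 22 tight and adherens junction genes 1 was lower, Cldn4, a sealing claudin, at 246 CPM in wild type, 150.5 in Lpar6 knockout cells and 261 in Cab39l knockout cells (1.64-fold, 1.57 to 1.70). Cdh1, which encodes E-cadherin, was at 167 against 102 CPM, a relative value of -0.20, and the junction list's median was -0.20. None of 9 desmosome genes passed 1.5-fold on the relative scale (0 higher, 0 lower, median -0.24); Dsp, the desmoplakin gene, a long transcript, was at 167 CPM in wild type against 75.6 and 66.7 in the knockouts. The list of YAP, TEAD and their targets (8 measured, 5 of them genes of the factors themselves) had 1 member higher and 1 lower, with a median of -0.13. The LKB1 and AMPK complex (14 measured) had 0 higher and 2 lower, with a median of -0.06. Of all genes 5.13% were higher and 3.04% lower.

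Cholesterol synthesis genes were higher in the Lpar6 knockout when set against genes of like transcript length. Of 22 measured, 20 had a relative log2 above 0, with a median of 0.44. By this measure 7 lay 1.5-fold or more above wild type and 0 as far below (5.13% and 3.04% of all genes). On the CPM scale 3 were at least 1.5-fold higher and 0 lower, with a median of 0.12. Fdps, which makes farnesyl pyrophosphate, was at 112.5 CPM in wild type, 216 in Lpar6 knockout cells and 181 in Cab39l knockout cells (1.92-fold, 1.82 to 2.03). The mevalonate steps stood likewise: the kinase gene Mvk was at 24.7, 37.1 and 33.4 CPM and Pmvk at 16.9, 34.1 and 26.5, with Mvd also past 1.5-fold. Of the late steps, Nsdhl was at 16.5, 25.2 and 20.3 CPM, and Hsd17b7 and Tm7sf2 were the other two past 1.5-fold. Hmgcs1, at the entry of the pathway, was not among them, at 77.8 against 56.6 CPM. At a uroplakin minimum of 1% the list's median was 0.06, and Fdps itself went with uroplakin share, from 85.6 CPM in wild type and 154 in Lpar6 knockout cells in the cells of lowest share to 215 and 259 in those of highest.

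The promoters of 2 of these genes are shown since they hold the CCAAT box, the letters bound by the factor NF-Y, several times over; the box on either strand is in capitals (CCAAT or ATTGG). All 16 cholesterol list genes with a promoter in RefSeq held it, the 6 found of the 7 genes past 1.5-fold among them. Over all promoters 12289 of 32851 (37.4%) held it. The list was counted by gene, with a match in any of its promoters, and the background by promoter, so the shares are not like for like. The sterol element letters TCACNCCAC were in 1 of the 16 genes, Hmgcs1, and in 408 of all promoters (1.24%). Mvk is at chr5:114444019-114444318 on the plus strand, with 5 matches, and Nsdhl at chrX:72918271-72918570 on the plus strand, with 4, in GRCm38.p6.
Mvk: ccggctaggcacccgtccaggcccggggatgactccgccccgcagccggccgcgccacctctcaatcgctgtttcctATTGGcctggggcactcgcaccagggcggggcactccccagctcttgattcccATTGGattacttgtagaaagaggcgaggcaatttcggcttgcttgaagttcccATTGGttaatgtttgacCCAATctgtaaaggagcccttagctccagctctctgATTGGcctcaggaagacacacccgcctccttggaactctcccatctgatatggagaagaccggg
Nsdhl: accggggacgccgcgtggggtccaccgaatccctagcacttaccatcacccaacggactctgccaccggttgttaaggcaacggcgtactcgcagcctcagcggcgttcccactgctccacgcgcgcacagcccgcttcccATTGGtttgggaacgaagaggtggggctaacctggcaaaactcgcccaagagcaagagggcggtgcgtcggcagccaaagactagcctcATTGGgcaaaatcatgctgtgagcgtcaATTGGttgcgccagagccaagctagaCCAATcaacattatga

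Antigen presentation genes of both classes held members that went either way. In the list of MHC class I and immunoproteasome genes, 5 of 17 were at least 1.5-fold higher on the relative scale and 0 lower, with a median of 0.25. The immunoproteasome subunit genes Psmb8 and Psmb9 were at 36.6 and 15.2 CPM in wild type, 73.5 and 28.6 in Lpar6 knockout cells, and 52.2 and 21.5 in Cab39l knockout cells. H2-K1 and H2-D1, which encode the classical heavy chains, were at 770.2 against 1002 and 531 against 752 CPM, and B2m, their light chain gene, at 351 CPM in wild type, 458 in Lpar6 knockout cells and 307 in Cab39l knockout cells. H2-Q7, H2-T22 and H2-T23 were the other members past 1.5-fold; reads of these near-identical class I genes are assigned with uncertainty. Of the 30 constitutive proteasome genes, 2 lay at least 1.5-fold above wild type on the relative scale, near the 5.13% of all genes, and 0 as far below. Among cells of the lowest uroplakin share Psmb8 was at 32.1 CPM against 60.4, so its difference was present there too.

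In class II, 1 of 5 measured genes was at least 1.5-fold higher and 3 were lower on the relative scale (5.13% and 3.04% of all genes), with a median of -1.51. H2-Eb1 was at 27.3 CPM in wild type, 46.2 in Lpar6 knockout cells and 26.3 in Cab39l knockout cells (1.69-fold, 1.51 to 1.89), and H2-DMb1, which encodes a chain of the peptide loader of class II, at 4.54, 7.29 and 4.65 CPM, a relative value of 0.52. Cd74, the class II invariant chain, was at 15.3, 1.18 and 11.5 CPM, and H2-Aa and H2-Ab1 at 3.79 and 5.53 CPM in wild type against 0.362 and 0.669 in Lpar6 knockout cells. Cd74 is itself on the immune marker list, which summed to 39.1, 3.74 and 33.0 CPM in the same libraries, and the part of immune cell RNA in these values was not tested. Lyz2, the lysozyme gene of macrophages, moved with them at 6.13, 0.506 and 6.55 CPM.

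On the relative scale the interferon list had 2 of 12 measured genes at least 1.5-fold higher and 0 lower (5.13% and 3.04% of all genes), with a median of 0.28. The higher genes were Ifi27 (13.02 CPM in wild type, 24.6 in Lpar6 knockout cells, 18.2 in Cab39l knockout cells) and Rtp4. Irf1, a transcription factor gene of the interferon response, was at 3.94 against 3.09 CPM.

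Surface and barrier genes differed member by member. Of the epithelial defence and Ly6 list, Ly6k and Psca were higher and Ly6a, Defb1 and Lyz2 lower among 15. Ly6k was uneven from cell to cell in the Lpar6 knockout: its median was 77.8 CPM with an upper quartile of 511, against 0 and 75.04 in wild type, and 767 of 2121 Lpar6 knockout cells (36.2%) lay above the wild-type 90th percentile. Ivl, which encodes involucrin of the cornified envelope, was at 718 CPM in wild type, 407 in Lpar6 knockout cells and 469 in Cab39l knockout cells. Sprr2a3, a small proline-rich protein gene, was at 536, 851 and 914 CPM, though near-identical Sprr2a copies share reads. Gsdmc2, a gasdermin gene, was at 15.7, 6.26 and 14.6 CPM, lower in the Lpar6 knockout than in either other library.

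Several genes of enzymes that handle foreign compounds had a level in the Lpar6 knockout apart from both other libraries. Of 16 measured cytochrome P450 and aldehyde genes, 4 were at least 1.5-fold lower and 1 higher on the relative scale (3.04% and 5.13% of all genes), with a median of -0.18. Cyp2f2 was at 16.2 CPM in wild type, 2.77 in Lpar6 knockout cells and 17.5 in Cab39l knockout cells (5.86-fold lower, 4.74 to 7.26). Aldh3a1, an aldehyde dehydrogenase gene of surface epithelia, was at 168, 88.6 and 174 CPM, and the carbonyl reductase gene Cbr2 at 221, 144.5 and 225. Aldh1a1, which makes retinoic acid, was at 24.2, 11.6 and 17.6 CPM. Cyp1a1, a target gene of the aryl hydrocarbon receptor, was higher, at 4.54, 10.4 and 4.26 CPM. Of 19 glutathione and NRF2 target genes 2 lay at least 1.5-fold above wild type and 0 as far below, and Gstm1, the most abundant of them, was at 23232 CPM against 25224.

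Energy metabolism lists differed in their share of members past 1.5-fold on the relative scale (all genes: 5.13% higher and 3.04% lower). The nuclear oxidative phosphorylation list had 4 of 61 higher and 0 lower, near the 5.13% of all genes that were higher, with a median of 0.16, and glycolysis 2 of 17, Aldoc and Gapdh, and 0 lower with a median of 0.21. The mitochondrially encoded genes, whose summed share the rule bounded, had 3 of 13 lower, 0 with a relative value above 0 and a median of -0.44, among them mt-Nd2 at 3719.6 CPM in wild type, 2149 in Lpar6 knockout cells and 2291 in Cab39l knockout cells, while mt-Co1 was at 12426, 12840.0 and 11630.0. In the list of PPAR targets and fatty acid genes 3 of 19 were higher on the relative scale, Fabp4, Fabp5 and Scd1, and 1 lower, Pdk4. On the CPM scale 0 were at least 1.5-fold higher and 2 lower, with a median of -0.02. Fabp5, a fatty acid binding protein gene of stratified epithelia, was at 666 CPM in wild type, 959.9 in Lpar6 knockout cells and 640.2 in Cab39l knockout cells.

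Cell cycle genes gave little. None of 14 p53 target genes passed 1.5-fold on the relative scale (0 higher, 0 lower, median -0.24), and of 11 replication and mitosis genes 1 was higher and 1 lower. Of 14 RB pathway and cell cycle inhibitor genes 1 was past 1.5-fold, Cdkn2a, which encodes p16 and p19ARF, with 4 UMIs in wild type and 142 in Lpar6 knockout cells, levels of 0.303 and 2.57 CPM against 1.46 in Cab39l knockout cells (8.48-fold, 3.24 to 31.5). Of 19 Rab and vesicle traffic genes, which serve the delivery of uroplakin plaques, 1 was lower, Anxa8, and 0 higher.

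RNAs that stay in the nucleus were listed together with transcripts that overlap ribosomal RNA repeats, and several of the list were lower in both knockouts. Of 7 measured, 4 lay at least 1.5-fold below wild type and 1 above in the Lpar6 knockout on the relative scale (3.04% and 5.13% of all genes), with a median of -0.76. The 4 were Neat1, Gm42418, Gm26917 and AY036118, and Malat1 was not among them. Malat1, a long non-coding RNA retained in the nucleus, was at 21032 CPM in wild type, 10956 in Lpar6 knockout cells and 10259 in Cab39l knockout cells, a relative log2 of -0.30. Gm42418, a transcript that overlaps ribosomal RNA repeats, was at 9616, 1719 and 1816 CPM, and Neat1, the paraspeckle RNA, at 282, 103 and 117. Wild-type Gm42418 went with mitochondrial share, from 6099 CPM in the low group to 11310.2 in the high, while the Lpar6 knockout had 1805 and 2018, and in the low group it was still higher in wild type. These RNAs moved with the longest transcripts, and their part in that relation was not tested. Snhg11, the non-coding RNA above wild type on that scale, went the other way in the Lpar6 knockout alone, at 137, 199 and 118 CPM. Malat1, Neat1, Gm42418, Gm26917, AY036118 and Lars2 were the 6 genes kept to check RNA quality. On the relative scale 5 were at least 1.5-fold lower and 0 higher (3.04% and 5.13% of all genes). They summed to 31407.5 CPM in wild type, 12904.8 in Lpar6 knockout cells and 12362.3 in Cab39l knockout cells. The part of RNA quality in the results was not tested.

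**Figure D5:**
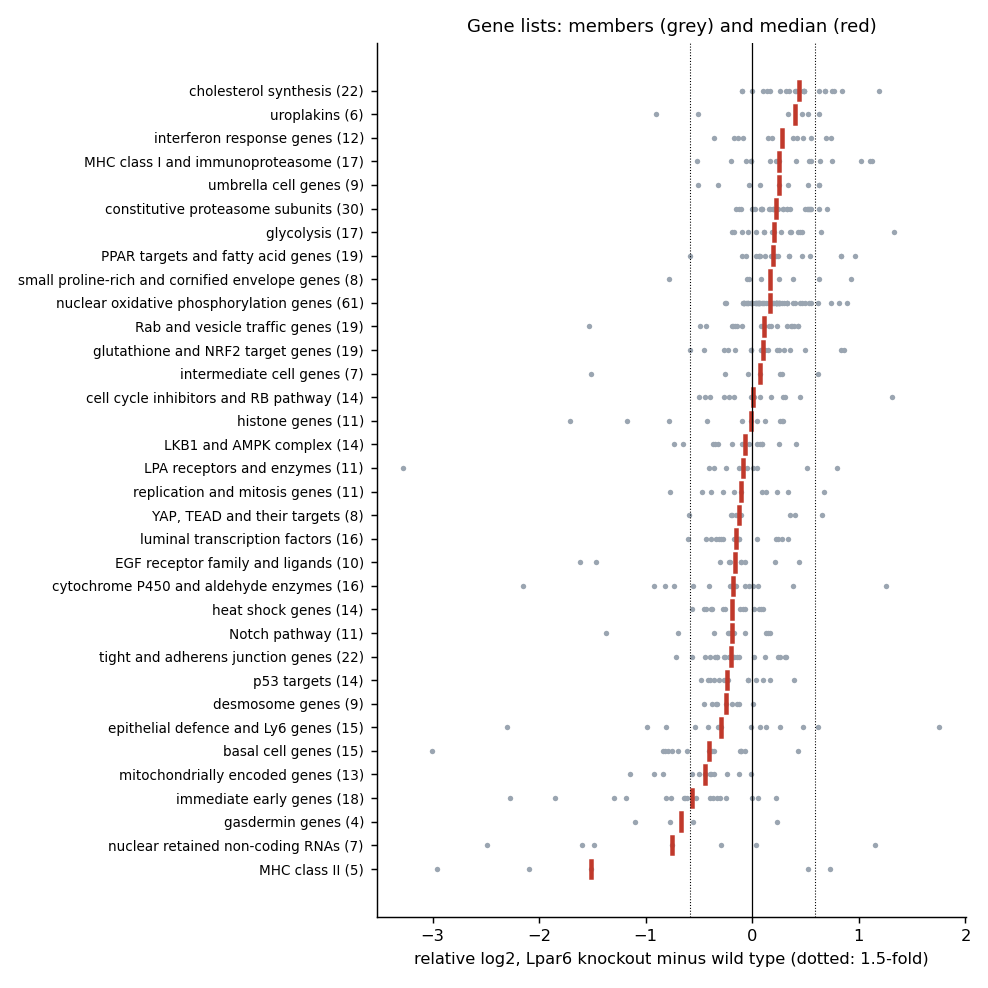
Relative log2 between the Lpar6 knockout and wild type (horizontal axis) of each measured member (grey) and the median (red) of each gene list drawn, with dotted lines at 1.5-fold. The cholesterol synthesis median is 0.44, the basal cell median -0.40 and the immediate early median -0.57, all between the dotted lines. Beyond the lower line are the medians of MHC class II (-1.51), nuclear retained non-coding RNAs (-0.76) and gasdermin genes (-0.67). The list of nuclear retained RNAs also holds Gm42418, Gm26917 and AY036118.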

How the data were processed

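Droplet-based 3' single-cell RNA libraries of mouse bladder urothelium were used as the raw UMI count per gene and barcode that the authors deposited. Cell Ranger 3.0.2 and the mm10 build are listed in the submitters' processing notes, and the annotation release was not given in the sources used here. Per the labels' protocols, bladder cells were freed with trypsin and red cells were removed on a density gradient. Raw counts were summed over the chosen cells of each library and scaled to CPM. Ratios used a pseudocount of 1 CPM and genes with at least 50 UMIs over both libraries. Transcript lengths came from GENCODE vM21, in which 30934 of 31053 gene identifiers were found, and promoters from RefSeq. Relative log2 values used 20 length groups. The libraries shared 19 barcodes over all cells and 0 among the chosen ones. No doublets were removed: Scrublet's own threshold marked 1 wild-type and 0 Lpar6 knockout barcodes of 6548 and 7219 scored, too few to have worked, and an alternative dropped the top 6% of scores.

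The rule for cells, the members and the lists were chosen with earlier results of these data known. Named were Lpar6, Rb1 and Cab39l, all uroplakin, umbrella, basal and intermediate genes, up to 15 genes each way by relative log2 among those 2-fold apart with 20 CPM, the extreme and most abundant members of each other list, and abundant genes of the longest and shortest length groups. Genes of ribosomal proteins, of mitochondrial DNA, of haemoglobin and of the sex chromosome check stayed out of the ranking, as did predicted genes. Further list members, and the flanking genes of Lpar6, were named after their values were seen. Alternatives covered the cell rules, doublets, scaling, pseudocount, count minimum, cell weights, thinning and length measure; 3 were chosen after seeing the data. A few genes and 1 gene list are not reported here. The steps were tested on simulated data. Python 3.11.15, numpy 2.4.6, scipy 1.17.1, pandas 2.3.3, scanpy 1.11.5 and matplotlib 3.10.9 were used.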

Additional observations from a re-analysis of the deposited data

How the results depend on the processing

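No paired analysis was possible because each genotype has 1 library with no replicate number, and for the same reason no replicate could be left out. The median log2 ratio (-0.29) and rank correlation with length (-0.59), with 32 genes at least 2-fold higher and 311 lower, became -0.090 and -0.41 with 64 and 148 at a mitochondrial maximum of 5%, where 40 wild-type and 105 Lpar6 knockout cells were left. At 20% they were -0.38 and -0.62 with 781 lower, and at a uroplakin minimum of 1% they were -0.21 and -0.46 with 86 and 191. Without a uroplakin minimum the correlation was -0.58. A window of 22000 to 28000 UMIs gave a median of -0.32, and one of 15000 to 40000 gave -0.25, a correlation of -0.56 and 170 lower. TMM turned the median to 0.036, with a correlation of -0.58, 130 higher and 77 lower, and median-of-ratios turned it to 0.048, with -0.57, 138 and 74. A pseudocount of 0.1 CPM gave -0.34, -0.57, 96 and 606, and one of 10 CPM gave a median of -0.14, 5 and 43. Genes with at least 500 UMIs gave -0.28, -0.65, 15 and 193, and with at least 1 UMI -0.14 and -0.49. The rank correlation was -0.58 without the highest doublet scores, -0.58 with each cell weighted equally, and -0.58 with cells thinned to 20000 UMIs, which gave a median of -0.30. Leaving mitochondrial and ribosomal UMIs out of the total gave -0.21, -0.58 and 62 higher. The rank correlation was -0.33 with the median transcript length and -0.43 with the genomic span. Chosen after seeing the data, wild-type cells weighted over mitochondrial groups gave -0.22, -0.52 and 201 lower, and weighted over Krt5 groups a median of -0.31. Against the Cab39l knockout in place of wild type the median was -0.0055, the correlation turned to 0.062 and 58 genes were lower, while the log2 ratios of Lars2 (0.029), Hist1h1e (0.99), Egr1 (0.30), Hist1h4d (0.83), Hist1h2bc (0.041), Dst (0.086) and Dsp (0.18) turned above 0. Of 35 list medians, 24 kept their sign under the 16 settings of cells, scaling and filters. The causes of these shifts were not tested. Depth limits genes under 5 CPM most, where the median counting half-width of a log2 ratio was 0.60.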
